A study of Mus musculus with 6 samples.

Results

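The genes described are 10 genes of airway ion transport, namely *Foxi1*, *Ascl3*, *Cftr*, *Atp6v0d2*, *Kcnma1*, *Scnn1a*, *Scnn1b*, *Scnn1g*, *Slc12a2* and *Ano1*. They were chosen by symbol and all 10 were found among the 20483 genes of the count table. The table held 23871 cells of 6 tracheal epithelial cultures that had been differentiated at an air-liquid interface (ALI), where the upper surface of the cells faces air. Each culture came from 1 mouse of the C57BL/6 strain, aged 12 weeks. There were 3 *WT/WT* mice (mice 1, 2 and 3) and 3 *MIS/MIS* mice (MT1301, MT1306 and MT1383), labelled WT and DNAAF5 Mutant. *MIS/MIS* mice are homozygous for a missense allele of *Dnaaf5*, which encodes a cytoplasmic factor needed to assemble the dynein motors of motile cilia, and the *WT/WT* mice were littermates with no such allele. The cells grew without the other cells of the trachea, so the cultures model the epithelium alone.

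The level of a gene is given in CPM, that is, its unique molecular identifiers (UMIs, each standing for 1 captured RNA molecule) scaled to the total UMIs of the same cells. UMIs at the 3′ end of transcripts are not scaled to transcript length, and levels are therefore compared between cells and not between genes. The cell table of the deposit names 16 celltypes, each a cluster of cells named by the authors from marker genes. Those numbered within a class were also summed to 4823 multiciliated, 7731 secretory and 11126 basal cells. The others were 28 cells named Ionocyte and 163 named Neuroendocrine. Because celltypes are clusters of the same cells and genes, levels are compared between them as a description without a test. An amino acid change cannot be read from these counts, so the genotypes were taken from the labels. Median depth was 21328 to 35383 UMIs per cell among the 6 libraries, with MT1383 the lowest, and 67 barcodes occurred in more than 1 library.

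Airway epithelium keeps a thin layer of liquid on its surface by moving salt in both directions. CFTR, a chloride and bicarbonate channel whose loss causes cystic fibrosis, and the calcium-activated chloride channel ANO1 release anions into the lumen, and the cotransporter NKCC1, encoded by *Slc12a2*, loads chloride into the cell from below. The epithelial sodium channel ENaC, built of the subunits encoded by *Scnn1a*, *Scnn1b* and *Scnn1g*, takes sodium up from the lumen. Ionocytes are rare epithelial cells rich in CFTR and in the proton pump V-ATPase, to which *Atp6v0d2* contributes a subunit. They depend on the transcription factor FOXI1 and also express the transcription factor ASCL3. *Kcnma1* encodes the pore of the BK potassium channel.

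The 250 bases upstream of the transcription start are shown for *Cftr*, *Foxi1* and *Ascl3*, the channel and the 2 transcription factors on which the comparison of Ionocyte cells with all others turns. Sequence was taken from RefSeq on GRCm38.p6, which held a promoter for 7 of the 10 genes, and is written in the sense of the gene. *Cftr* lies on the plus strand of chromosome 6 at 18170687 to 18322768 and its upstream bases at chr6:18170437-18170686. *Foxi1* lies on the minus strand of chromosome 11 at 34204338 to 34208089, with upstream bases at chr11:34208090-34208339. *Ascl3* lies on the minus strand of chromosome 7 at 109727465 to 109731726, with upstream bases at chr7:109731733-109731982. Capitals mark the forkhead core motif TGTTTA or its reverse complement TAAACA.
Cftr: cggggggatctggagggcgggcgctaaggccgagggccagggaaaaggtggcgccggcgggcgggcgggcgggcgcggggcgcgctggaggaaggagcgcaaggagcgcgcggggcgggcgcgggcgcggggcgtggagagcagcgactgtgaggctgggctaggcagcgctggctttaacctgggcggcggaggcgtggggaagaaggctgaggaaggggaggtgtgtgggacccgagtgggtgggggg
Foxi1: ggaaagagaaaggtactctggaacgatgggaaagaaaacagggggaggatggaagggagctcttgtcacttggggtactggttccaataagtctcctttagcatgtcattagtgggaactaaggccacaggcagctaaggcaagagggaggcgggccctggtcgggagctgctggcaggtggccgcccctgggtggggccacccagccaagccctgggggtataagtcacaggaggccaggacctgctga
Ascl3: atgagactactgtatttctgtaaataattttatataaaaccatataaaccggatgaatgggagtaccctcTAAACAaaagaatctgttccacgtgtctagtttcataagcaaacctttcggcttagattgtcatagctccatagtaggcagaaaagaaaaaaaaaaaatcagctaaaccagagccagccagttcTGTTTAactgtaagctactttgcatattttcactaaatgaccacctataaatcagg

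Of the 3 sequences, that of *Ascl3* held the motif, at 180 and at 56 bases before the start, and those of *Cftr* and *Foxi1* held none. The other 4 genes with a promoter had no match in the same stretch. The motif occurred in 12.0% of all 32851 upstream windows of this length, and the longer form TGTTTAC occurred in 3.17% of the windows and in none of these genes. G and C made up 76.4% of the *Cftr* bases, 58.8% of the *Foxi1* bases and 34.8% of the *Ascl3* bases, against a median of 52.4% over all windows. A match is a string of letters and was not tested for binding.

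The Ionocyte cells were few. The authors named clusters from marker genes, so high ionocyte markers in these cells describe them and do not test the name. They made up 0.117% of all cells (exact 95% binomial interval 0.0780 to 0.169%) and held 0.0926% of all UMIs, and their median depth was 23171 UMIs against 28778 in the other cells. All intervals given here cover counting error only. The transcription factor gene *Tfcp2l1* was at 839 CPM in them, *Stap1* at 2522 CPM and *Moxd1* at 196 CPM, while *Krt5* of basal cells was at 2.88 CPM and *Foxj1* and *Rsph1* of multiciliated cells were at 0. The neuroendocrine markers *Chga*, *Calca* and *Resp18*, the tuft cell marker *Pou2f3* and the leukocyte markers *Ptprc* and *Cd3e* were also at 0. The tuft cell markers *Dclk1* and *Avil* were at 1.44 CPM. *Pou2f3*, *Ptprc* and *Cd3e* were at 0.997 CPM or less in every other class too, so their 0 separates little. The summed level of 7 ionocyte markers, 4 of which are among the 10 genes, was 5296 to 8493 CPM in the 3 libraries with Ionocyte cells and 11.4 to 42.9 CPM in the multiciliated, secretory and basal cells of any mouse. Summed over the Ionocyte cells of a library, 4 basal markers were at 16.1 to 38.0 CPM, 5 multiciliated markers at 9.34 to 50.7 CPM, 3 leukocyte markers at 0 to 11.7 CPM, 5 secretory markers at 63.4, 69.8 and, in MT1383, 1400 CPM, and 4 fibroblast markers at 0, 25.3 and, in MT1383, 355 CPM. The secretory gene *Scgb3a2* was at 758 CPM over all Ionocyte cells, and 3 cells of MT1383 held 55 to 224 UMIs of it each and the other 25 cells at most 6. The fibroblast gene *Dcn* was at 222 CPM. Leaving out the 3 cells with *Scgb3a2* raised *Cftr* from 474 to 517 CPM and *Slc12a2* from 2026 to 2267 CPM.

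Ionocyte cells were found in 3 of the 6 libraries. *WT/WT* mouse 1 had 2 among 2842 cells, mouse 2 had 0 among 4844 and mouse 3 had 7 among 2771. In *MIS/MIS* mice, MT1301 had 0 among 4031 cells, MT1306 had 0 among 2673 and MT1383 had 19 among 6710. The 3 libraries with none still allowed shares of up to 0.0619% in mouse 2, 0.0744% in MT1301 and 0.112% in MT1306, taking 3 cells as the limit that a count of 0 allows. The share was 0.108% ± 0.130 for *WT/WT* mice and 0.0944% ± 0.163 for *MIS/MIS* mice (SD, n = 3 each), and it did not differ beyond this spread (difference −0.0133 percentage points, two-sided exact permutation test, p = 1, where the smallest p possible is 0.1). MT1383 held 19 of the 28 cells, and without it the *MIS/MIS* share was 0 and the difference −0.108 points. No comparison of levels between genotypes in Ionocyte cells could be tested, since 1 of 3 *MIS/MIS* libraries held any.

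**Figure D1:**
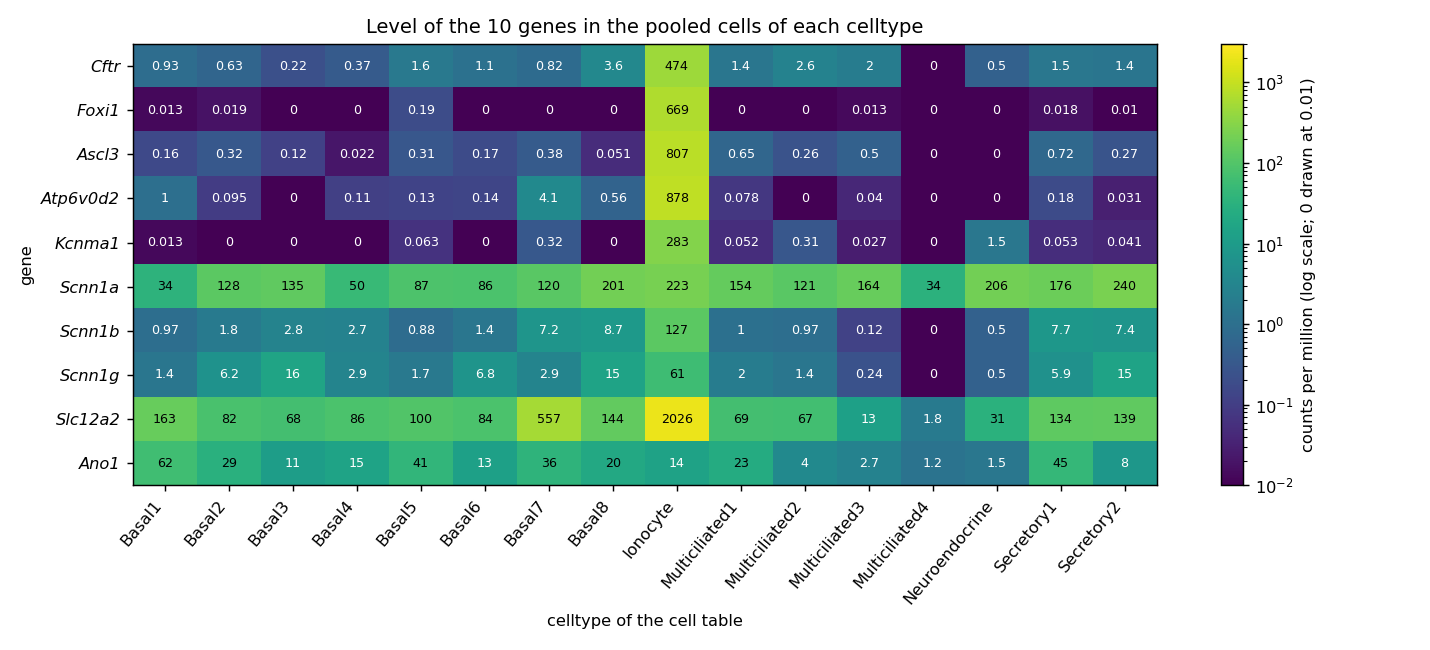
Level of each of the 10 genes (rows) in the pooled cells of each of the 16 celltypes (columns), in CPM on a logarithmic colour scale. *Foxi1*, *Ascl3*, *Cftr*, *Atp6v0d2* and *Kcnma1* are above 280 CPM in Ionocyte cells and below 5 CPM in every other celltype, whereas *Scnn1a* is at 33 CPM or more in all 16.

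*Foxi1*, encoding the transcription factor on which ionocytes depend, was restricted to a degree that no other member reached. All 28 Ionocyte cells had it, with 5 to 48 UMIs each and a median of 14.5. Its level was 669 CPM in the pooled Ionocyte cells (exact 95% Poisson interval 609 to 733), with 837 CPM in *WT/WT* mouse 1, 735 CPM in mouse 3 and 609 CPM in MT1383. The next celltype in order was Basal5 at 0.189 CPM, which rested on 6 UMIs in 2 cells of MT1383. Of 477 *Foxi1* molecules in the table, 97.3% were in Ionocyte cells. The remaining 13 were in 9 of the 23843 other cells (0.0377%), and the 3 libraries without Ionocyte cells held none in 11548 cells.

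*Ascl3*, encoding a basic helix-loop-helix transcription factor, was also highest in Ionocyte cells but varied more among them. It was found in 25 of the 28 cells, from 0 to 62 UMIs with a median of 15. The level was 1458 CPM in mouse 1, 1170 CPM in mouse 3 and 530 CPM in MT1383, and the exact Poisson interval of MT1383 (463 to 603 CPM) lay below those of both *WT/WT* mice. These intervals leave out the spread between cells, and with 1 *MIS/MIS* library this difference has no replicate. For *Slc12a2* the interval of MT1383 (1255 to 1478 CPM) also lay below those of both *WT/WT* mice. The *Slc12a2* intervals of the *WT/WT* mice did not overlap each other either (1632 to 2258 and 3324 to 3874 CPM). The pooled *Ascl3* level of 807 CPM was 1128 times that of the next celltype, Secretory1, at 0.716 CPM. Ionocyte cells held 66.8% of its 838 molecules, secretory cells 17.7%, multiciliated cells 8.47% and basal cells 7.04%. Outside the Ionocyte cells, 237 cells (0.994%) had an *Ascl3* UMI, and the share was 0.976% in the libraries with Ionocyte cells and 1.01% in those with none. In Neuroendocrine cells a UMI was found in 0 of 163, at a median depth of 10351 UMIs. A count of 0 allows 1.84% of these cells to have a UMI, which is no limit on the cells that express the gene.

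*Cftr* combined the highest level per cell in Ionocyte cells with a larger number of molecules elsewhere. Each of the 28 Ionocyte cells had it, with 3 to 26 UMIs and a median of 11.5. The level was 583 CPM in mouse 1, 472 CPM in mouse 3 and 455 CPM in MT1383, and the 3 intervals overlapped. The pooled level was 474 CPM (424 to 528). The next celltype, Basal8, was at 3.59 CPM, 132 times lower, followed by Multiciliated2 at 2.62 CPM and Multiciliated3 at 1.98 CPM. The mean over mice was 3.58 ± 1.34 in Basal8 (SD, n = 5 mice) and 2.90 ± 1.06 in Multiciliated2 (n = 6), and these neighbours did not differ beyond their spread. At the low end Basal3 was at 0.217 CPM and Multiciliated4 had no *Cftr* UMI in 146 cells, at a median depth of 10197 UMIs, which allows a level of up to 1.84 CPM (3 UMIs).

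Among the 3 classes, *Cftr* was higher in multiciliated than in basal cells in 6 of 6 mice and higher in secretory than in basal cells in 6 of 6. Multiciliated cells were above secretory cells in 5 of 6. The mean over mice was 2.12 ± 0.838 CPM in multiciliated, 1.50 ± 0.354 in secretory and 0.897 ± 0.171 in basal cells (SD, n = 6). A *Cftr* UMI was found in 4.56% of multiciliated, 4.49% of secretory and 2.40% of basal cells, and in 1 of 163 Neuroendocrine cells (0.613%). After every cell was thinned to 5000 UMIs, the shares were 0.871% of multiciliated, 0.789% of secretory, 0.369% of basal and 89.3% of Ionocyte cells.

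**Figure D2:**
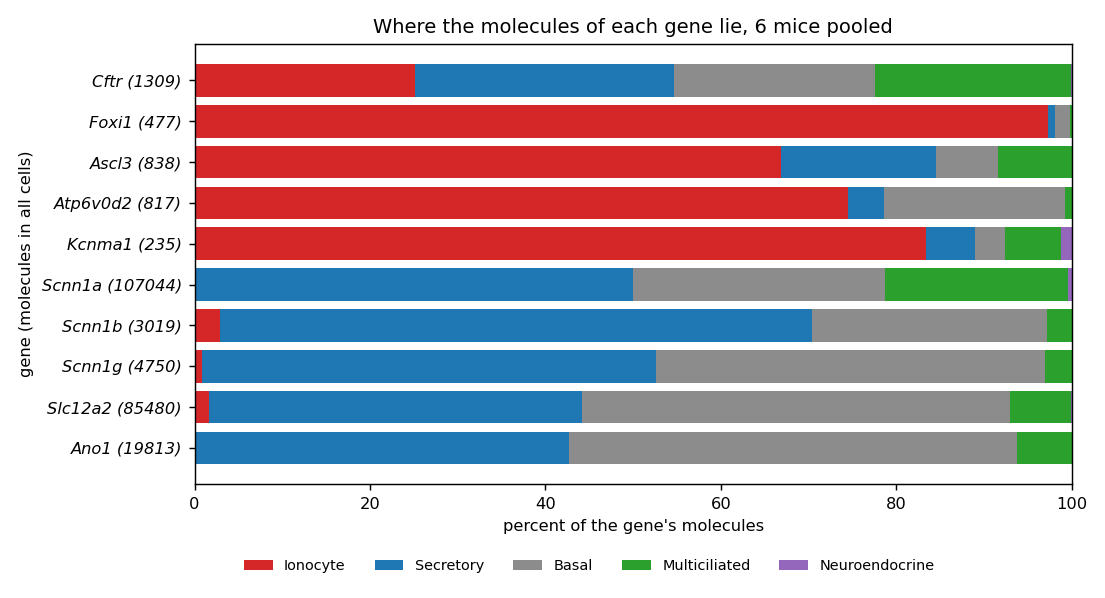
Percent of each gene's molecules (horizontal axis) that lay in Ionocyte, secretory, basal, multiciliated and Neuroendocrine cells, pooled over the 6 mice, with the number of molecules beside each gene. The Ionocyte segment is 97.3% for *Foxi1* and 25.1% for *Cftr*, and below 3% for the 3 ENaC subunits, *Slc12a2* and *Ano1*.

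Counted by molecules, 25.1% of the 1309 *Cftr* UMIs were in the 28 Ionocyte cells (exact 95% binomial interval 22.8 to 27.6%), and 15.1% without the library of MT1383. Secretory cells held 29.6%, basal cells 22.8% and multiciliated cells 22.4%. By library, the Ionocyte share was 21.3% in *WT/WT* mouse 1, 40.7% in mouse 3 and 46.0% in MT1383, and it was 0 in mouse 2, MT1301 and MT1306. This is the same order as that of the share of Ionocyte cells among all cells captured in these libraries. The level of *Cftr* outside Ionocyte cells lay between 1.14 and 1.58 CPM in all 6 mice, with 1.45 CPM in the pooled libraries that had Ionocyte cells and 1.18 CPM in those that had none. There were 980 *Cftr* UMIs in 835 such cells. None of the 835 cells had a *Foxi1* UMI and 12 had an *Ascl3* UMI, while 0.0377% and 0.994% of all cells outside had these. Such low shares leave little to be read from either count. For each *Foxi1* UMI there were 0.709 *Cftr* UMIs in Ionocyte cells and 75.4 in the other cells. *Ascl3* gave 1.21 and 21.4 UMIs for each *Foxi1* UMI. Both values outside rest on 13 *Foxi1* UMIs, 12 of them in MT1383, left once the Ionocyte cells had been clustered apart. Where the molecules outside came from was not tested. No cell outside the Ionocyte celltype had *Foxi1*, *Cftr* and *Atp6v0d2* together, which follows from the absence of *Foxi1* in the cells with *Cftr*. The celltypes were themselves named from such marker genes.

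**Figure D3:**
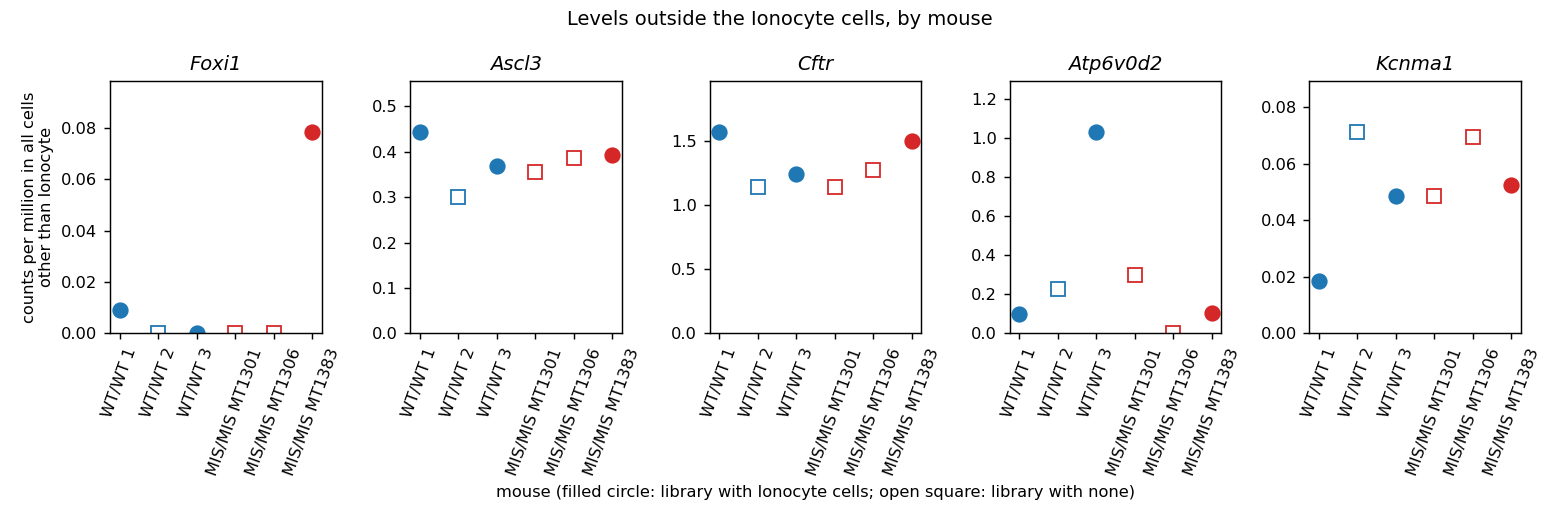
Level in CPM of *Foxi1*, *Ascl3*, *Cftr*, *Atp6v0d2* and *Kcnma1* over all cells other than Ionocyte, 1 point for each mouse. Filled circles are libraries with Ionocyte cells and open squares libraries with none. *Cftr* lies between 1.14 and 1.58 CPM in all 6 mice, and *Foxi1* is at 0 in the 3 libraries without Ionocyte cells.

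*Atp6v0d2* encodes the d2 subunit of the membrane part of the V-ATPase, and lies on chromosome 4 at 19876841 to 19922605. All 28 Ionocyte cells had it, with 8 to 41 UMIs and a median of 19. The level was 760 CPM in mouse 1, 977 CPM in mouse 3 and 857 CPM in MT1383, and 878 CPM in the pooled cells. Basal7 followed at 4.05 CPM, with UMIs in 30 of 510 cells, and Basal1 was at 1.02 CPM. Of the 76 UMIs in Basal1, 43 were in 3 cells, and the cell with most, 19 UMIs, came from *WT/WT* mouse 3. Ionocyte cells held 74.5% of its 817 molecules and basal cells 20.7%. Outside Ionocyte cells it was at 1.03 CPM in *WT/WT* mouse 3 and had no UMI in 2673 cells of MT1306.

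Most other subunits of the V-ATPase were less concentrated in Ionocyte cells than *Atp6v0d2*. The exception, named after its values were seen, was *Atp6v1g3* with 77.1% of only 48 molecules. The list held 24 subunit genes, of which 22 had at least 50 UMIs in all. Of these, 12 had their highest level in Ionocyte cells (54.5%; 11 of 21 without *Atp6v0d2*), against 1583 of 16842 genes of that abundance in the whole table (9.40%). Ionocyte cells held 8.61% of the molecules of *Atp6v1c2*, at 346 CPM against 7.69 CPM in the next celltype, and 6.84% of those of *Atp6v1b1*, at 50.5 CPM. *Atp6v0a4* followed with 1.96%. The more abundant subunits had lower shares. *Atp6v1a*, the catalytic subunit, had 0.576% of its molecules in Ionocyte cells, yet its level there was 1136 CPM against 293 CPM in Basal7. The shares were 0.489% for *Atp6v0b*, 0.474% for *Atp6ap2* and 0.311% for *Atp6v1e1*.

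*Kcnma1*, on chromosome 14 at 23289431 to 24014491, was present in all 28 Ionocyte cells with 2 to 21 UMIs and a median of 6.5. Its level was 228 CPM in mouse 1, 365 CPM in mouse 3 and 257 CPM in MT1383, and 283 CPM in the pooled cells. Neuroendocrine cells were next at 1.50 CPM, which was 3 UMIs in 2 of 163 cells. Ionocyte cells held 83.4% of its 235 molecules. Outside them 39 UMIs lay in 35 cells, 15 of the UMIs in libraries with Ionocyte cells and 24 in libraries without.

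Other potassium channel genes were spread more widely. Of the 16 besides *Kcnma1* with at least 50 UMIs, 3 were highest in Ionocyte cells (18.8%, against 9.40% of all genes of that abundance), and the median share of molecules there was 0. *Kcne2*, a regulatory subunit, had 2.17% of its molecules in Ionocyte cells, *Kcnk5* 0.617%, *Kcnq1* 0.453% and *Kcnk1* 0.240%. *Kcne3* had 0.0124% there and was highest in Secretory1, at 62.3 CPM. *Lrrc26*, which encodes a regulatory subunit of the BK channel, had 0.00688% of its molecules in Ionocyte cells and was highest in Basal5 at 231 CPM, and *Kcnmb2*, another such subunit, had none there.

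**Figure D4:**
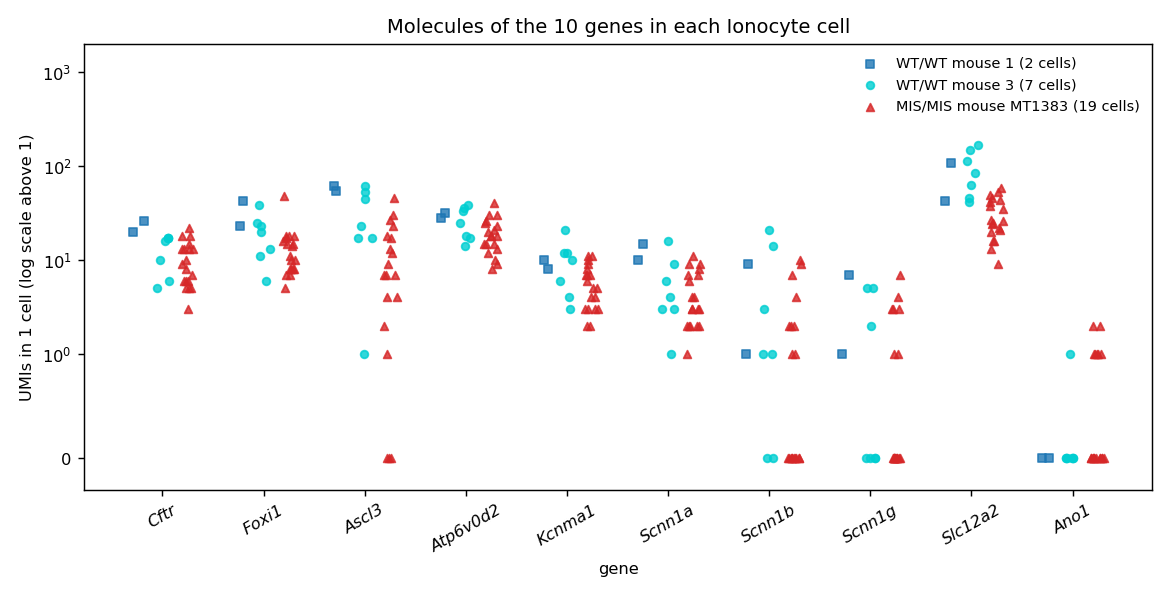
UMIs of each gene in each of the 28 Ionocyte cells (points; vertical axis logarithmic above 1), for the 2 cells of *WT/WT* mouse 1, the 7 cells of mouse 3 and the 19 cells of *MIS/MIS* mouse MT1383. *Slc12a2* ranges from 9 to 170 UMIs and *Ano1* from 0 to 2.

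*Scnn1a*, the pore-forming alpha subunit of ENaC, was found throughout the epithelium. It lies on chromosome 6 at 125320659 to 125344943. Its pooled level was 240 CPM in Secretory2, 223 CPM in Ionocyte, 206 CPM in Neuroendocrine and 201 CPM in Basal8 cells. The libraries ranged from 202 to 291, 205 to 317, 149 to 258 and 124 to 274 CPM in the same order, and these ranges overlapped. Within every mouse, however, Secretory2 was above both Neuroendocrine and Basal8 cells. The margin over Neuroendocrine cells was narrowest in MT1383, at 202 against 201 CPM, and some libraries had few cells of these celltypes. Of the 3 libraries with Ionocyte cells, 2 had a higher level in them than in Secretory2. The level was lowest in Basal1 (34.0 CPM) and Multiciliated4 (33.8 CPM). Secretory cells ranged from 151 to 261 CPM over the 6 mice, multiciliated cells from 134 to 182 and basal cells from 78.0 to 118. In each of the 6 mice secretory cells were above multiciliated cells and these above basal cells. Of 107044 *Scnn1a* molecules, 49.8% were in secretory, 28.7% in basal, 20.9% in multiciliated and 0.145% in Ionocyte cells. Cells with a UMI made up 96.3% of secretory, 91.0% of multiciliated and 71.5% of basal cells, and 57.0%, 48.4% and 30.9% after thinning.

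The beta and gamma subunits, *Scnn1b* and *Scnn1g*, lie beside each other on the plus strand of chromosome 7. *Scnn1g* spans 121734479 to 121768475 and *Scnn1b* spans 121865038 to 121918514, with 96562 bases between them. Both were nearly absent from the largest multiciliated celltype, Multiciliated3, at 0.121 CPM for *Scnn1b* and 0.242 CPM for *Scnn1g*, while *Scnn1a* was at 164 CPM in the same cells. Over the whole class of multiciliated cells, *Scnn1b* was lowest in 6 of 6 mice.

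*Scnn1b* was at 127 CPM in Ionocyte cells, followed by Basal8 at 8.71, Secretory1 at 7.74 and Secretory2 at 7.36 CPM. The mean over mice was 9.77 in Secretory1 and 7.75 in Secretory2, with ranges of 3.33 to 20.1 and 3.57 to 13.7, and these neighbours did not differ beyond their spread. In secretory cells the 3 *WT/WT* mice were at 15.6, 3.77 and 6.51 CPM, and MT1301, MT1306 and MT1383 at 5.41, 16.8 and 4.88 CPM. Each genotype thus had 1 mouse at over 15 CPM and 2 mice below 7. Secretory cells held 67.5% of its 3019 molecules, basal cells 26.8%, Ionocyte cells 2.91% and multiciliated cells 2.75%.

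*Scnn1g* was at 60.6 CPM in Ionocyte cells, followed by Basal3 at 15.8, Basal8 at 15.2 and Secretory2 at 14.8 CPM, which did not differ from one another beyond their spread over mice. Secretory1, the larger secretory celltype, was at 5.94 CPM. In secretory cells the level was 14.7, 6.01 and 10.5 CPM in *WT/WT* mice 1, 2 and 3, and 7.71, 17.0 and 5.13 CPM in MT1301, MT1306 and MT1383. Mice 1 and MT1306, which were highest for *Scnn1b*, were also highest for *Scnn1g*. Of its 4750 molecules, 51.8% were in secretory, 44.3% in basal, 3.05% in multiciliated and 0.884% in Ionocyte cells.

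Ionocyte cells varied in their subunits. *Scnn1a* was found in all 28, with 1 to 16 UMIs, *Scnn1b* in 16 with up to 21 UMIs, and *Scnn1g* in 12 with up to 7. All 3 subunits were found in 11 cells (39.3%), and *Scnn1a* alone in another 11. The share of cells with all 3 was 12.7% in Basal8, 8.05% in Secretory2, 5.12% in Secretory1 and 0.0369% in Multiciliated3, at median depths of 42985, 31435, 33387 and 26360 UMIs against 23171 in Ionocyte cells. The higher share in Ionocyte cells was therefore found at a lower depth. *Scnn1g* rests on 42 UMIs in these cells, and its level there is the least certain of the 3.

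Of the list of ENaC subunits and regulators, which held 18 genes, 5 were highest in Ionocyte cells (27.8%), 2 of them *Scnn1b* and *Scnn1g*. Without the 3 subunits it was 3 of 15 (20%), against 9.40% of all genes with at least 50 UMIs. The median share of molecules of the 18 genes in Ionocyte cells was 0.119%, against 0.0693% for all genes of the same abundance.

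*Slc12a2*, encoding the basolateral cotransporter NKCC1, lies on chromosome 18 at 57878678 to 57946821. It was found in all 28 Ionocyte cells, with 9 to 170 UMIs and a median of 42, and its level there was 1927 CPM in *WT/WT* mouse 1, 3591 CPM in mouse 3 and 1363 CPM in MT1383. The pooled level was 2026 CPM. Basal7 was next at 557 CPM, with a mean of 470 ± 180 over 6 mice (SD) and a UMI in 95.5% of its cells, and stood apart from Basal1 at 163 CPM and Basal8 at 144 CPM. Multiciliated3 was at 12.7 CPM. The multiciliated class was the lowest of the 3 in 6 of 6 mice. Ionocyte cells held 1.64% of 85480 molecules, basal cells 48.8%, secretory cells 42.6% and multiciliated cells 6.94%.

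*Ano1*, on chromosome 7 at 144588549 to 144751974, was the only one of the 10 genes with a lower level in Ionocyte cells than in several of the abundant celltypes. Ionocyte cells had 0 to 2 UMIs each, 10 in all, and a level of 14.4 CPM (6.91 to 26.5). Basal1 was highest at 61.9 CPM, with a mean of 63.3 ± 20.4 over 6 mice, followed by Secretory1 at 45.0 CPM (48.2 ± 14.7), and these did not differ beyond their spread. Basal5 was at 40.6, Basal7 at 35.7 and Multiciliated1 at 23.4 CPM. Secretory2, at 7.95 CPM, was below Secretory1, whereas the order of these celltypes was the other way round for *Scnn1a* and *Scnn1g*. Ionocyte cells held 0.0505% of 19813 molecules, basal cells 51.1%, secretory cells 42.6% and multiciliated cells 6.26%. A UMI was found in 47.2% of secretory, 40.8% of basal and 14.3% of multiciliated cells, and in 1.84% of Neuroendocrine cells.

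Across the lists of related genes, concentration in Ionocyte cells was a property of few genes. Of 2149 genes with at least 50 UMIs in Ionocyte cells, 14 had over 50% of their molecules there and 4 had over 90%. The 10 highest were *Foxi2* (99.1%), *Bsnd* (98.6%), *Foxi1* (97.3%), *Galnt13* (93.6%), *Smbd1* (85.0%), *Kcnma1* (83.4%), *Rcan2* (83.2%), *Stap1* (79.0%), *Atp6v0d2* (74.5%) and *Amtn* (73.9%). *Bsnd* encodes barttin, the accessory subunit of ClC-K chloride channels. *Foxi2* is a paralog of *Foxi1*. Of the list of known ionocyte genes, which includes 6 of the 10 genes, 18 of 19 with at least 50 UMIs were highest in Ionocyte cells, with a median of 13.6% of molecules there. For genes of chloride and bicarbonate transport, *Cftr* and *Slc12a2* included, this was 7 of 31 with a median of 0.0814%, for the sodium-potassium pump 2 of 8 with 0.0413%, and for aquaporins 0 of 6 with 0.00551%. Among all genes it was 9.40%, with a median of 0.0693%. In the ionocyte list, *Foxi1*, *Foxi2*, *Bsnd* and *Kcnma1* reached 50 UMIs only through their molecules in Ionocyte cells. For these genes the outcome was fixed by the filter, and the 18 of 19 includes them.

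The genes most like each member were sought by the correlation of log2(CPM + 1) over the 16 celltypes, which share libraries and differ in size, so that the values are descriptions. For *Foxi1* these were *Foxi2* and *Galnt13* (both r = 1.00) and *Ascl3* (0.99), and for *Ascl3* they were *Galnt13*, *Foxi1* and *Foxi2*. *Cftr* was closest to *C130026I21Rik* (0.98), *Ascl3* (0.97) and *Gm26850* (0.96), *Atp6v0d2* to *Rnase1*, *C130026I21Rik* and *Lrrc3* (all 0.98), and *Kcnma1* to *Smbd1* (1.00), *Rcan2* (0.99) and *Foxi2* (0.99). For these 5 genes the 1 Ionocyte point lies far from the other 15. It also does for *Scnn1b*, at 127 CPM against 8.71 CPM in the next celltype. *Scnn1a* was closest to *Zfp654* (0.86), *Tob1* (0.85) and *Sort1* (0.84), *Scnn1b* to *Cd38* (0.94), *Rab21* (0.92) and *Itpr2* (0.90), and *Scnn1g* to *Gm26652* (0.93), *Pparg* (0.90) and *Gm14636* (0.88). *Slc12a2* was closest to *Eif2ak3*, *Cgnl1* and *Slc39a8* (all 0.91). *Ano1* was closest to *Slfn2* (0.93), *Ddx58* and *Phf11d* (both 0.90), of which *Ddx58* encodes the RNA sensor RIG-I.

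To ask whether the *Dnaaf5* genotype was accompanied by other levels of these genes, UMIs were summed for each mouse within a class of cells and compared between 3 *WT/WT* and 3 *MIS/MIS* mice with limma voom. In each class 7 of the 10 genes were abundant enough to be tested. None passed an adjusted p of 0.05 (Benjamini-Hochberg over all genes tested) in any class, by voom or by limma-trend. Over all genes, 0.00704% were called in multiciliated cells and 0.00735% in secretory cells, in both cases the single gene *Wdfy1*, which was lost in secretory cells when any 1 mouse was left out, and 0% in basal cells, where 334 of 14615 genes had an unadjusted p under 0.05. Of the 7 genes tested, 1 had an unadjusted p under 0.05 in multiciliated cells, against 4.32% of all genes, and 0 in secretory and in basal cells, against 1.9% and 2.29%. Among the 7, the mice of both genotypes did not overlap for 1 gene in multiciliated cells (9.62% of all genes tested), 0 in secretory cells (6.03%) and 0 in basal cells (7.04%). Of the 3 genes too low to be tested, *Kcnma1* and *Atp6v0d2* also had no overlap in multiciliated cells, on 15 and 6 UMIs in all 6 mice. *WT/WT* was at 0.148 to 0.172 and 0.0527 to 0.115 CPM and *MIS/MIS* at 0.0430 to 0.130 and 0 to 0.0376 CPM. MT1383 held 2 *Atp6v0d2* UMIs there, as many as *WT/WT* mouse 3, among more cells. The shares above are of tested genes, so they give no background for genes this low.

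**Figure D5:**
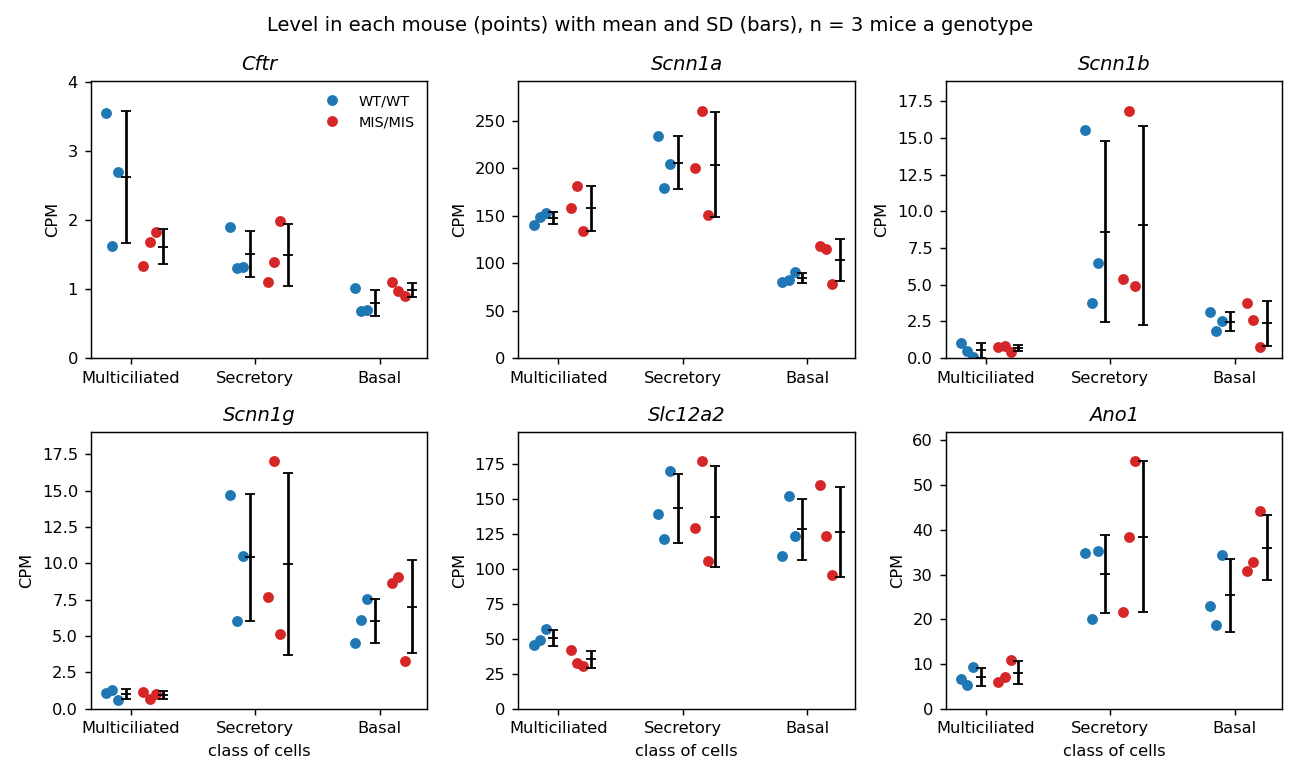
Level in CPM of 6 of the genes in multiciliated, secretory and basal cells of each mouse (points, *WT/WT* and *MIS/MIS* in separate colours), with the mean and SD of 3 mice a genotype (bars). The genotypes overlap in every panel and class except for *Slc12a2* in multiciliated cells, where the *WT/WT* mice are at 45.5 to 57.1 and the *MIS/MIS* mice at 30.9 to 42.2 CPM.

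The gene tested with no overlap was *Slc12a2*. In multiciliated cells it was at 45.5, 49.5 and 57.1 CPM in *WT/WT* mice 1, 2 and 3, and at 42.2, 33.0 and 30.9 CPM in MT1301, MT1306 and MT1383. All 3 *MIS/MIS* mice were below all 3 *WT/WT* mice, by −0.57 ± 0.13 on the log2 scale (SE, limma voom, unadjusted p = 0.00317, adjusted p = 0.896). The makeup of the class also differed among the mice. Multiciliated3, in which *Slc12a2* was low, made up 52.1, 43.0 and 58.9% of the multiciliated cells of *WT/WT* mice 1, 2 and 3 and 58.3, 70.2 and 55.0% of those of MT1301, MT1306 and MT1383. With each celltype given the same number of cells in every mouse the difference was −0.36 (unadjusted p = 0.0907), and in Multiciliated3 alone it was −0.34 (unadjusted p = 0.375), with overlapping mice in both by limma voom. The summed level of 4 basal markers in multiciliated cells was 65.9 to 82.0 CPM in *WT/WT* and 25.6 to 56.5 CPM in *MIS/MIS* mice, that of 5 multiciliated markers 2870 to 2965 and 2986 to 3585 CPM, and that of 5 secretory markers 773 to 1831 and 826 to 2401 CPM. Their part in the result was not tested.

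In the other classes *Slc12a2* was at −0.08 ± 0.19 in secretory and −0.10 ± 0.20 in basal cells (log2 *MIS/MIS* over *WT/WT*, SE). In secretory cells *WT/WT* mice were at 121 to 170 and *MIS/MIS* mice at 106 to 177 CPM. The difference between classes was itself not called, with 0.44 ± 0.24 for secretory minus multiciliated and 0.43 ± 0.24 for basal minus multiciliated cells (limma, unadjusted p = 0.0894 and 0.0954).

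*Cftr* in multiciliated cells was at 3.55, 1.63 and 2.70 CPM in *WT/WT* mice and at 1.33, 1.69 and 1.82 CPM in *MIS/MIS* mice. Mouse 2 lay among the *MIS/MIS* values. The log2 difference was −0.59 ± 0.31 (unadjusted p = 0.0932 by limma voom), and it was −0.92 without mouse 2 and −0.36 without mouse 1. It was −0.03 ± 0.27 in secretory and 0.25 ± 0.28 in basal cells. The effect in basal cells minus that in multiciliated cells was 0.93 ± 0.34 (limma, unadjusted p = 0.0173, adjusted p = 0.978), and no gene was called for any pair of classes (0% of 15942 genes, with 353, 703 and 440 at an unadjusted p under 0.05 for secretory minus multiciliated, basal minus multiciliated and secretory minus basal cells).

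*Scnn1a* differed by 0.07 ± 0.11 in multiciliated, −0.05 ± 0.18 in secretory and 0.22 ± 0.16 in basal cells. In basal cells the *WT/WT* mice were at 80.5, 82.1 and 90.6 CPM, and MT1301, MT1306 and MT1383 were at 118, 115 and 78.0 CPM, so that MT1383 lay below every other mouse. *Scnn1b* differed by 0.77 ± 0.78, 0.21 ± 0.58 and −0.42 ± 0.60, and *Scnn1g* by −0.09 ± 0.36, −0.06 ± 0.45 and 0.04 ± 0.42, in the same order of classes. The errors of these subunits leave room for differences in either direction. *Ano1* differed by 0.27 ± 0.29 in multiciliated, 0.32 ± 0.37 in secretory and 0.47 ± 0.24 in basal cells (limma voom, unadjusted p = 0.0936). The basal cells of the *WT/WT* mice were at 23.1, 18.7 and 34.4 CPM and those of the *MIS/MIS* mice at 30.9, 32.8 and 44.3 CPM, which overlap.

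The genes specific to Ionocyte cells could be tested where their few molecules outside allowed. *Ascl3* differed by −0.60 ± 0.53 in multiciliated and 0.25 ± 0.38 in secretory cells. Leaving out 1 mouse moved these values to between −1.07 (without mouse 2) and −0.0802 (without MT1383), and to between 0.0186 (without mouse 2) and 0.54 (without mouse 1). *Atp6v0d2* differed by −1.50 ± 1.66 in basal cells, where *WT/WT* mouse 3 was at 2.01 CPM and the other 5 mice at 0 to 0.624 CPM. *Foxi1* and *Kcnma1* were too low to be tested in any class.

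Among the 7 lists of related genes no gene passed the adjusted threshold in any class, by voom or by limma-trend. Counting each gene once, an unadjusted p under 0.05 was reached by 8 of the 95 genes tested in multiciliated cells, by 7 of the 91 in secretory cells and by 5 of the 100 in basal cells, and 9, 4 and 7 had mice that did not overlap, to be read against the shares of all genes above. Over all genes tested, 7321 of 14206 lay higher in *MIS/MIS* mice in multiciliated, 6593 of 13610 in secretory and 7013 of 14615 in basal cells, and the counts of higher genes in the lists given next are to be set beside these. The median log2 difference of a list lay between −0.24 and 0.05 in all 3 classes, against 0.00664 in multiciliated, −0.00438 in secretory and −0.00685 in basal cells over all genes tested.

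Of the ENaC regulators, *Sgk1*, a kinase that raises ENaC at the cell surface, had the lowest p of its list in all 3 classes. Its log2 difference was −0.66 in multiciliated (unadjusted p = 0.0142), −0.31 in secretory (unadjusted p = 0.0269) and −0.56 in basal cells (unadjusted p = 0.0251), from limma voom fits across all genes and all short of the adjusted threshold. The 3 classes come from the same mice. The next in each class were *Usp2* at 0.34, the channel-activating protease gene *Prss8* at −0.28, and *Bpifa1* at 0.52. In this list 9 of 18 genes lay higher in *MIS/MIS* mice in multiciliated, 7 of 17 in secretory and 8 of 18 in basal cells.

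In chloride and bicarbonate transport, *Slc12a2* and *Stk39*, which encodes the kinase SPAK that activates NKCC1, had the lowest p in multiciliated cells, and *Stk39* was at −0.33 (limma voom, unadjusted p = 0.0237). The bicarbonate cotransporter gene *Slc4a4* was at 0.21 in secretory (unadjusted p = 0.00803) and 0.67 in basal cells (unadjusted p = 0.0106) in the limma voom fits, followed by *Clca1* at −0.68 and *Ttyh1* at −1.22 in these classes. Genes higher in *MIS/MIS* mice numbered 17 of 28, 9 of 29 and 15 of 30 in multiciliated, secretory and basal cells.

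Of the V-ATPase subunits, 11 of 19 lay higher in *MIS/MIS* mice in multiciliated, 9 of 20 in secretory and 10 of 21 in basal cells. The 2 with the lowest p were *Atp6v0e2* at 0.30 (limma voom, unadjusted p = 0.00387) and *Atp6v0d1* at 0.17 in multiciliated cells, *Atp6v1b1* at 0.85 and *Atp6v1d* at −0.09 in secretory cells, and *Atp6ap2* at −0.26 and *Atp6v1g2* at 0.37 in basal cells. Among known ionocyte genes, 5 of 10, 7 of 10 and 6 of 12 lay higher. Apart from those already named, the lowest p belonged to *Tfcp2l1* at −0.28 in multiciliated and −0.44 in basal cells, to *Gata3* at −0.61 in secretory cells (limma voom, unadjusted p = 0.0352) and to *P2ry14* at 0.67 in basal cells. *Gata3* is in this list but was highest in Basal5, at 54.7 CPM against 14.4 CPM in Ionocyte cells.

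Potassium channel genes lay higher in *MIS/MIS* mice for 4 of 12, 5 of 10 and 6 of 14 genes. *Kcnk1*, a two-pore-domain channel, was at −0.33 in multiciliated cells (limma voom, unadjusted p = 0.00457) and *Kcnmb2* at 0.46 there and 0.81 in secretory cells, where *Kcnq1* was at −0.16. *Kcnk6* was at −1.53 and *Kcnq5* at −1.03 in basal cells. Genes of the sodium-potassium pump lay higher for 3 of 7, 3 of 5 and 2 of 6. *Atp1b3*, a beta subunit of the pump, was at −0.24, −0.17 and −0.60 in the 3 classes, beside *Fxyd3* at 0.13 in secretory and *Fxyd4* at −0.56 in basal cells. Of 4 aquaporins tested in each class, 0, 0 and 2 lay higher. *Aqp3*, an aquaglyceroporin of basolateral membranes, was at −0.47, −0.29 and −0.52, with *Aqp11* at −0.12 in multiciliated cells and *Aqp5* at −0.11 in secretory and 0.32 in basal cells.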

How the data were processed

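Single-cell RNA-Seq was made from ALI cultures of 6 mice. The authors deposited 1 table of raw UMI counts per gene and cell and 1 table of cells with their celltype. Per the labels, reads were processed with Cell Ranger 7.1.0 on mm10; the study's methods name an older version and cell filters of at most 25% mitochondrial reads and 2500 to 7500 genes, which 23216 of 23871 deposited cells met. No doublet caller was run. The tables separate columns in an unusual way and their values were recorded as another unit, though all are whole UMI counts. No negative binomial count test was run, and limma 3.58.1 (R 4.3.3) voom took its place.

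UMIs were summed per mouse and celltype or class, with TMM scaling, and a gene was kept where at least 3 mice had 10 or more counts at the median library size. Each class sum held 13516848 to 73192479 UMIs. The fits were tested on simulated counts in which all genes had a single fixed spread between mice. Those runs do not show what the fits can detect at the spread of these mice. The p-values measure the spread between these cultures. *WT/WT* barcodes carried the number of their mouse and *MIS/MIS* barcodes a number in no label, so the latter were assigned to the genotype only, and 0 columns stayed unmapped.

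Members and lists were chosen with earlier results of these data known, and the motif after its matches were seen. Named genes are the members, the 2 of each list with the lowest p per class, those with the largest share in Ionocyte cells, and the 3 most like each member. A few genes this rule or the marker lists name are not reported here. Positions are from GENCODE on GRCm38. Python 3.11.15 was used.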

Additional observations from a re-analysis of the deposited data

How the results depend on the processing

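The 21 differences between genotypes of single genes were refitted in 256 alternative settings, of which 218 kept the direction and 0 were called. Of all genes, multiciliated cells gave 3 calls with the largest celltype alone (*Wdfy1* and *Sult1d1* higher, *Fank1* lower) and 1 to 1 when a mouse was left out. Secretory cells gave 0 with upper-quartile scaling and 0 to 0 when a mouse was left out. Basal cells gave 1 with equal composition of celltypes. For the difference of effects, secretory minus basal, leaving out a mouse gave 0 to 1 calls, the 1 without *WT/WT* mouse 2.

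The direction turned in these settings, none of them called (log2 *MIS/MIS* over *WT/WT*). With the largest celltype alone, the values were 0.0297 for *Cftr*, 0.0149 for *Scnn1a* and 0.35 for *Scnn1g* in secretory cells, and 0.67 for *Scnn1b*, −0.36 for *Scnn1g* and 0.33 for *Slc12a2* in basal cells. With equal composition they were −0.0491 for *Scnn1a* and 0.0371 for *Slc12a2* in basal and 0.10 for *Scnn1g* in multiciliated cells. Thinned cells gave 0.0102 for *Scnn1a* and 0.16 for *Scnn1g* in secretory cells, and the stated cell filters 0.0179 for *Scnn1g* in multiciliated cells. Leaving out a mouse gave, in multiciliated cells, −0.0454 to 0.18 for *Scnn1a*, −0.26 to 1.50 for *Scnn1b*, −0.42 to 0.13 for *Scnn1g* and −0.0739 to 0.49 for *Ano1*. In secretory cells it gave −0.26 to 0.23 for *Cftr*, −0.22 to 0.14 for *Scnn1a*, −0.44 to 0.66 for *Scnn1b*, −0.53 to 0.26 for *Scnn1g*, −0.26 to 0.0727 for *Slc12a2* and −0.0211 to 0.70 for *Ano1*. In basal cells it gave −2.29 to 0.0118 for *Atp6v0d2*, −0.96 to 0.32 for *Scnn1b*, −0.23 to 0.54 for *Scnn1g* and −0.28 to 0.10 for *Slc12a2*. The share of Ionocyte cells differed by −0.108 to 0.0592 percentage points.

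Thinning to 5000 UMIs moved 5 of 40 levels by more than the spread between mice, to 0.737 CPM for *Cftr* and 0.306 CPM for *Ascl3* in basal cells, 0 for *Kcnma1* and 0.663 CPM for *Scnn1g* in multiciliated cells, and 7.14 CPM for *Scnn1g* in Ionocyte cells, where 1 molecule was left. Leaving out 1 library moved 6 of the 10 shares of molecules in Ionocyte cells by over 1.5 times. Without MT1383 the share was 15.1% for *Cftr* (25.1% with it), 0.0753% for *Scnn1a* (0.145%), 1.84% for *Scnn1b* (2.91%), 0.468% for *Scnn1g* (0.884%) and 0.00694% for *Ano1* (0.0505%), and the level in Ionocyte cells was 1256 CPM for *Ascl3* (807), 3096 CPM for *Slc12a2* (2026) and 3.77 CPM for *Ano1* (14.4). Without *WT/WT* mouse 3 the share was 1.83% for *Scnn1b* and 1.03% for *Slc12a2* (1.64%). Of the levels below 1 CPM outside Ionocyte cells, those of *Foxi1* in all 3 classes, *Atp6v0d2* in secretory and basal and *Kcnma1* in basal cells also moved by over 1.5 times. The cause of these changes was not tested. Depth limits the genes with few molecules outside Ionocyte cells, and 28 cells in 3 libraries limit every value within them. Upper-quartile scaling, limma-trend and the cells without *Scgb3a2* were chosen after seeing the data. The planned negative binomial tests were not run. No paired analysis was possible because the barcodes of *MIS/MIS* mice carry numbers that match no replicate number of the labels.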
